A study of Mus musculus with 12 samples.

Results

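Potassium channel genes were followed in mouse satellite cells, the stem cells of skeletal muscle, from fetal life to old age. The members are all genes on the array whose symbol starts with Kcn, 92 of 19938 measured genes. Each was read from 1 probe set with a single gene symbol, the one with the highest mean where a gene had several. Satellite cells had been sorted by ZsGreen fluorescence and read on 12 single-colour Affymetrix arrays, 3 per stage. All groups were labelled strain C57BL/6 and carried 1 Pax7-ZsGreen reporter allele, so the cells were chosen by activity of Pax7, the transcription factor that defines satellite cells. Gates were set by age, with wild type SV129 muscle as the negative control. Fetal cells came from whole forelimbs and hindlimbs at E17.5 (4 mice pooled). Adolescent cells came from hindlimbs at postnatal day 21 (6 mice), adult cells from hindlimbs at 2 to 3 months (8 mice) and aged cells from hindlimbs at over 1 year (8 mice). Forelimb muscle was part of the fetal group alone, so limb and stage cannot be told apart there. The labels leave unstated whether replicates came from separate pools of animals, and every p-value rests on the spread among the arrays as they are, which may be technical alone.

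Potassium channels let potassium leave or enter the cell down its gradient, and thereby set the resting membrane potential and the shape of electrical signals. Pore subunits fall into voltage-gated channels, channels opened by intracellular calcium or sodium, inward rectifiers, and leak channels with a tandem pore, and accessory subunits tune their gating. In muscle they set excitability. In human myoblasts, hyperpolarisation through ether-a-go-go and inward rectifier channels precedes differentiation and fusion.

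Values are log2 RMA levels, so a difference of 1 is a 2-fold change. A level is comparable between stages for 1 probe set, but not between probe sets. Stages were compared with limma over all 12 arrays, and a gene rose or fell where its Benjamini-Hochberg adjusted p over 19938 genes was under 0.05. Differences are given with their standard error (n = 3 arrays per stage), which is pooled over the 4 stages. All 10 satellite cell markers had a stage mean of 6 or more, and Pax7, the gene behind the sort, lay between 10.4 and 11.7 on the 12 arrays. A stage mean of 6 or more was also reached by all 10 myofibre, all 10 endothelial and all 9 measured fibroblast markers, so this level does not tell these cell types apart, and the part of other cell types in the results was not tested. Arrays of 1 stage correlated at 0.972 to 0.999 across genes, and arrays of different stages at 0.905 to 0.986. Adult replicate 1 stood apart from adult replicates 2 and 3: the proliferation marker Mki67 was 9.28 on it, against 6.58 and 6.44 on the others. Within every stage replicates 2 and 3 were closer to each other (SD of the difference over genes 0.101 to 0.164) than to replicate 1 (0.229 to 0.500). A raised background on adult replicates 2 and 3 and aged replicate 1 is described with the low-signal genes below.

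Many channel genes gave little signal. Of the 92 members, 57 had no stage mean of 6 or more and are called dim (62.0%), against 35.9% of all genes. Just below that line stood Kcnk7 (highest stage mean 5.90), Kcnt1 (5.97) and Kcnmb4os2 (5.9994), and just above it Kcnq1 (6.02), Kcnh5 (6.07) and Kcnip3 (6.10). The highest stage mean was 8 or more for 5 members, Kcne1l, Kcnn3, Kcnj8, Kcnma1 and Kcnt2.

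Between the fetal and the adolescent stage more channel genes rose than fell. In adolescent against fetal cells 14 of 92 members rose (15.2%, against 10.1% of all genes) and 4 fell (4.35%, against 8.68%). The members' median difference was 0.04, against 0.02 for all genes. In adult against adolescent cells 3 rose (3.26%, against 4.56% of all genes) and 5 fell (5.43%, against 15.2%). In aged against adult cells 5 rose (5.43%, against 3.28% of all genes) and 1 fell (1.09%, against 0.216%). Over the longer interval, adult against fetal, 26 rose (28.3%, against 19.1% of all genes) and 6 fell (6.52%, against 23.4%), and the median difference was 0.22 for members and 0.09 for all genes. That comparison shares its fetal arrays with the first step and its adult arrays with the others. With the background (the mean of receptor probe sets, described below) as a covariate, 11 members rose and 8 fell in it. The median difference was then -0.0075 for members and -0.0093 for all genes. Without the 3 arrays of raised background, which leaves 1 adult array, the medians were 0.02 and -0.01. An F-test among the 4 stages called 26 members (28.3%), of which 20 were not dim, against 41.6% of all genes.

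These counts moved with single arrays. Without adult replicate 1, 42 members passed in adult against adolescent cells (37 rose and 5 fell), 42 in aged against adult cells (7 rose and 35 fell) and 62 in adult against fetal cells (56 rose and 6 fell). The balance thereby turned from mostly falling to mostly rising in the first of these and from mostly rising to mostly falling in the second. Over all 19938 genes the counts also rose without adult replicate 1, from 3941 to 10757, from 697 to 7844 and from 8465 to 12968. In aged against adult cells 10 rose and 62 fell with array weights, and 9 rose and 50 fell without adult replicate 1 and aged replicate 1. In those fits 15776 and 11689 of all genes passed. Without adult replicates 2 and 3 and aged replicate 1 the adult stage rests on 1 array. The members' median difference was then -0.053 in adult against adolescent and -0.055 in aged against adult cells. Over all genes it was -0.038 and -0.018. In adult against adolescent cells the count was 5 without adolescent replicate 1, 5 without adolescent replicate 2, 3 without adolescent replicate 3 and 4 without adult replicate 2. In aged against adult cells it was 2 without adult replicate 2, 3 without adult replicate 3, 1 without aged replicate 2 and 2 without aged replicate 3. Over all genes these counts were 2464, 2385, 2249 and 1876 for the first comparison and 269, 289, 214 and 216 for the second. In adolescent against fetal cells 13 to 16 members passed without any 1 of the 6 fetal and adolescent arrays, and 20 without adult replicate 1, which enters through the shared spread. Of all genes 2690 to 3330 passed without 1 of those 6 arrays, against 3739 with all arrays. For single genes below, a left-out array is always 1 of the 6 of the stages compared. Where adult replicate 1 is left out, the adult stage rests on replicates 2 and 3 alone, both of raised background. Of the 42, 42 and 62 members that passed in those fits, 26, 28 and 35 were dim.

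**Figure D1:**
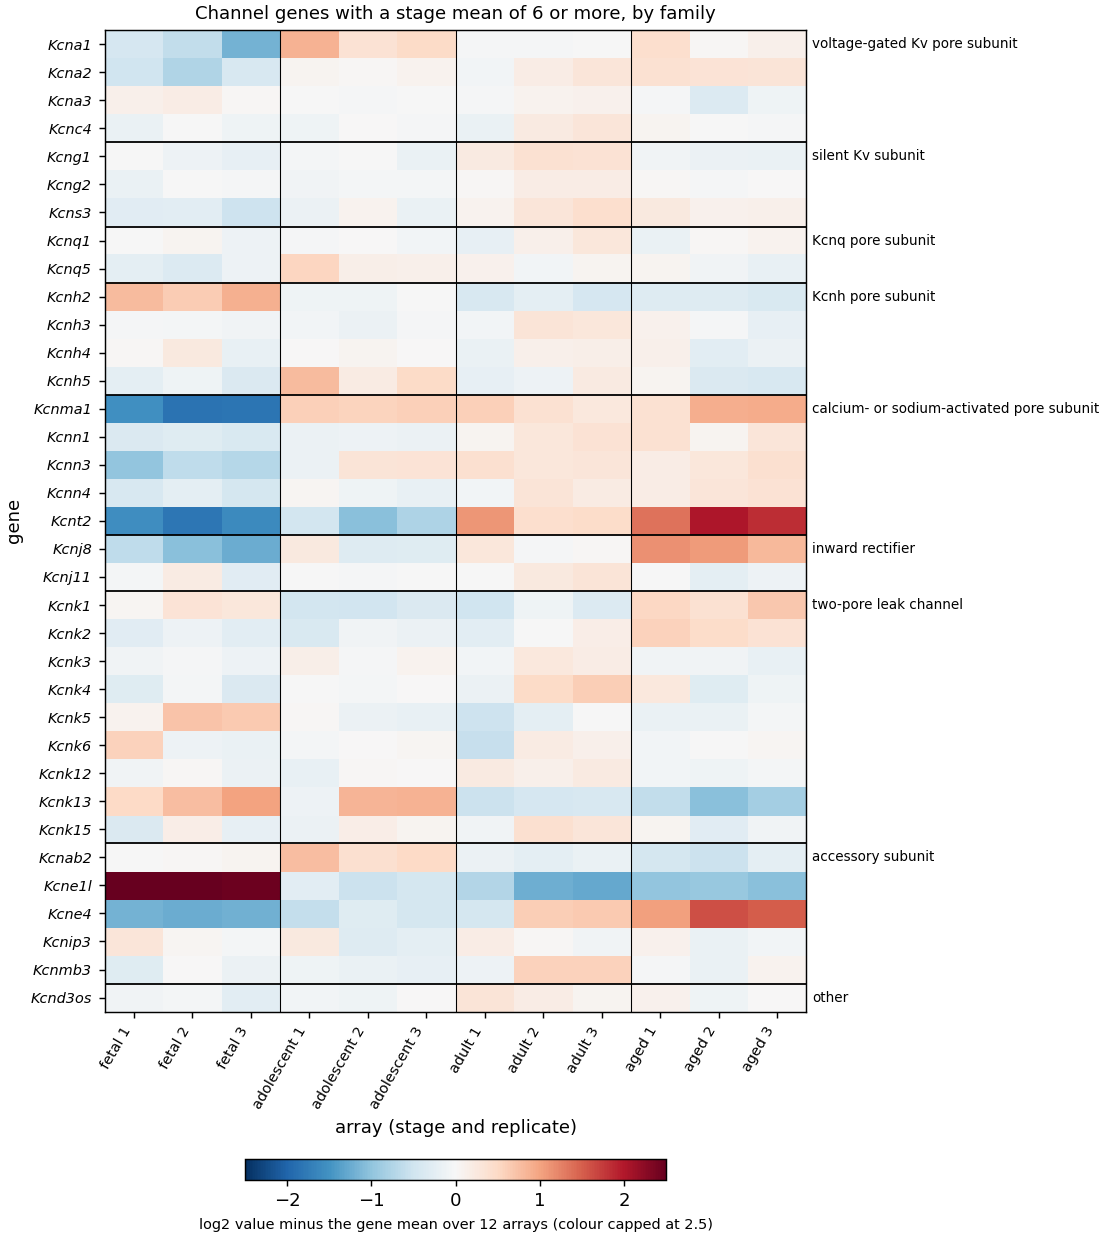
Heat map of the 35 potassium channel genes with a stage mean of 6 or more, grouped by family. Columns are the 12 arrays in the order of the stages, and colour is the log2 value minus the gene's mean over all arrays (red higher, blue lower, capped at 2.5). Kcne1l is high in the fetal columns alone, Kcnma1 is low there, and Kcnt2 and Kcne4 grade from blue to red across the stages.

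Kcne1l, Kcnt2, Kcne4 and Kcnma1 spanned more than 2 log2 units across their stage means, the widest ranges of the 92 members. For these 4 the 250 bases before the start of a RefSeq transcript are shown 5′ to 3′ on the gene's strand (build GRCm38.p6). They let the control regions of the genes with the largest stage differences be compared. Capitals mark matches to CAGCTG, an E-box form that muscle regulators such as MyoD bind, to CACGTG, an E-box form bound by Myc and clock factors, or to TATAAA, the TATA box, each searched on both strands. No match overlapped another.
Kcne1l, chrX:142306199-142306448, minus strand: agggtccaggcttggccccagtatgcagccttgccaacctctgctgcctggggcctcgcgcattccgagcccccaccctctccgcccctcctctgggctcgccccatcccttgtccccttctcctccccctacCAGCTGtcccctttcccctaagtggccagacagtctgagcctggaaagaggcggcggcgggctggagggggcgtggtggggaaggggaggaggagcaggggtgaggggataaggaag
Kcnt2, chr1:140245468-140245717, plus strand: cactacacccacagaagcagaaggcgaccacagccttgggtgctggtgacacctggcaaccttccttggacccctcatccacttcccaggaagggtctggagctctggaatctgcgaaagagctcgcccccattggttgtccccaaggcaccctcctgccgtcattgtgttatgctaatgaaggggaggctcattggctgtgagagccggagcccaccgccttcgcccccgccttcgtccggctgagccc
Kcne4, chr1:78816661-78816910, plus strand: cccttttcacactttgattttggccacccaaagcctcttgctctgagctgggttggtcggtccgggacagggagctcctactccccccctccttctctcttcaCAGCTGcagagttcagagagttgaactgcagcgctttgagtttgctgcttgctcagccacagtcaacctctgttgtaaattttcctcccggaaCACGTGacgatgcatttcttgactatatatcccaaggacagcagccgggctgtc
Kcnma1, chr14:24004206-24004455, minus strand: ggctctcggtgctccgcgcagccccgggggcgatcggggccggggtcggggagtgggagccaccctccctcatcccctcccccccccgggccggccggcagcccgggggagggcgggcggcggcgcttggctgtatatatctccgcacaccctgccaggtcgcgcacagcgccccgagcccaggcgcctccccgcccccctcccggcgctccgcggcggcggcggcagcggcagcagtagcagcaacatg
The Kcne1l window held 1 CAGCTG, and the Kcne4 window held 1 CAGCTG and 1 CACGTG. The Kcnt2 and Kcnma1 windows held none of the 3 motifs. Among 32851 RefSeq promoter windows of this length, 13% held CAGCTG, 12.4% TATAAA and 6.02% CACGTG. RefSeq promoters were matched for 70 of the 92 members (95 windows), of which 23.2% held CAGCTG, 3.16% TATAAA and 6.32% CACGTG. The Kcnma1 window was 79.2% G and C with 31 CpG sites, the Kcne1l window 68% with 9, the Kcnt2 window 61.6% with 10 and the Kcne4 window 53.2% with 7. The medians over all windows were 52.4% and 6 CpG sites. A match is a stretch of letters and says nothing of binding in these cells.

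Of the 8 channels opened by calcium or sodium, 6 passed the F-test (41.6% of all genes did) and 6 rose in adult against fetal cells (19.1% of all genes), with a median difference of 0.55 there. The family as such was not tested. Without the 3 arrays of raised background the rises of Kcnn4 and Kcnt1 did not pass. In the fetal to adolescent step 3 rose (10.1% of all genes did), namely Kcnma1, Kcnt2 and Kcnn3. Kcnma1 encodes the pore of the large-conductance BK channel, which opens on depolarisation and calcium. It had 6.55, 6.24 and 6.26 on the fetal arrays, 8.68, 8.63 and 8.68 on the adolescent, 8.67, 8.47 and 8.34 on the adult and 8.46, 8.99 and 9.01 on the aged arrays. All 9 later arrays lay above the 3 fetal ones, while the later stages overlapped. It was 4.98-fold higher in adolescent than in fetal cells (log2 difference 2.32 ± 0.15, adjusted p = 2.72e-07), and 4.43-fold higher in adult than in fetal cells (2.15 ± 0.15, adjusted p = 2.82e-07). The later steps did not pass, with differences of -0.17 ± 0.15 in adult against adolescent (adjusted p = 0.402) and 0.33 ± 0.15 in aged against adult cells (adjusted p = 0.237). The last difference was 0.51 and passed without aged replicate 1 (adjusted p = 0.0274). A second Kcnma1 probe set had stage means of 3.27 to 3.43 and passed in none of the 4 comparisons, with its adolescent minus fetal difference at 0.17. With the mean of both probe sets the difference was 1.24, which still passed.

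Kcnt2, a sodium-activated channel also called Slick, rose at every step. Its arrays read 5.26, 5.02 and 5.23 in fetal cells, 6.37, 5.79 and 6.05 in adolescent, 7.94, 7.25 and 7.27 in adult and 8.18, 8.85 and 8.66 in aged cells. No 2 stages overlapped. The difference was 0.90 ± 0.21 in adolescent against fetal (adjusted p = 0.00997), 1.42 ± 0.21 in adult against adolescent (adjusted p = 9.1e-04) and 1.08 ± 0.21 in aged against adult cells (adjusted p = 0.0162). From end to end aged cells stood 10.5-fold above fetal cells (3.39 ± 0.21, adjusted p = 8.37e-08). The aged against adult step did not pass without adult replicate 2, adult replicate 3, aged replicate 2 or aged replicate 3 (adjusted p = 0.0767 to 0.0975). The first 2 steps passed whichever array was left out. The related channel Kcnt1, or Slack, was dim, with stage means of 5.16, 5.32, 5.59 and 5.97 from fetal to aged, and rose in adult against fetal cells (0.43 ± 0.11, adjusted p = 0.00684).

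Small-conductance SK channels open when calcium binds their calmodulin. Kcnn3 had 8.42, 8.78 and 8.70 in fetal cells, 9.26, 9.72 and 9.75 in adolescent, 9.80, 9.69 and 9.71 in adult and 9.59, 9.68 and 9.80 in aged cells. The fetal arrays lay below all others, and the 3 later stages overlapped. It was 1.92-fold higher in adolescent than in fetal cells (0.94 ± 0.14, adjusted p = 3.17e-04), and then differed by 0.16 ± 0.14 (adult against adolescent) and -0.04 ± 0.14 (aged against adult). Kcnn1 climbed later: it was 0.38 ± 0.11 higher in adult than in adolescent cells (adjusted p = 0.0269) and 0.59 ± 0.11 higher in adult than in fetal cells (adjusted p = 7.73e-04). The first of these calls was lost without any 1 of adolescent replicates 1, 2 and 3 or adult replicates 2 and 3 (adjusted p = 0.0709 to 0.122), and fell to 0.21 (adjusted p = 0.299) without the 3 arrays of raised background. Kcnn4, the intermediate-conductance channel, was 0.51 ± 0.12 higher in adult than in fetal cells (adjusted p = 0.00409), and 0.29 (adjusted p = 0.109) without those 3 arrays. Without adult replicate 1 it also rose in adult against adolescent cells (0.35, adjusted p = 0.0155). Kcnn2 was dim (highest stage mean 4.87) and passed in none of the 4 comparisons. It fell in aged against adult cells without adult replicate 1 (-0.51, adjusted p = 0.0486) and without adult replicate 1 and aged replicate 1 (-0.71, adjusted p = 0.00204). Those fits keep only the adult arrays of raised background. With array weights Kcnn2 passed in aged against adult (-0.63) and adult against adolescent cells (0.24). With the background as a covariate it fell in adult against fetal cells (-0.48, adjusted p = 0.0447). Of the BK accessory subunits, the smooth muscle subunit Kcnmb1 was dim and rose in adolescent against fetal cells (0.60 ± 0.15, adjusted p = 0.0155), and Kcnmb4 was dim and fell in adult against fetal cells (-0.40 ± 0.11, adjusted p = 0.0124).

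**Figure D2:**
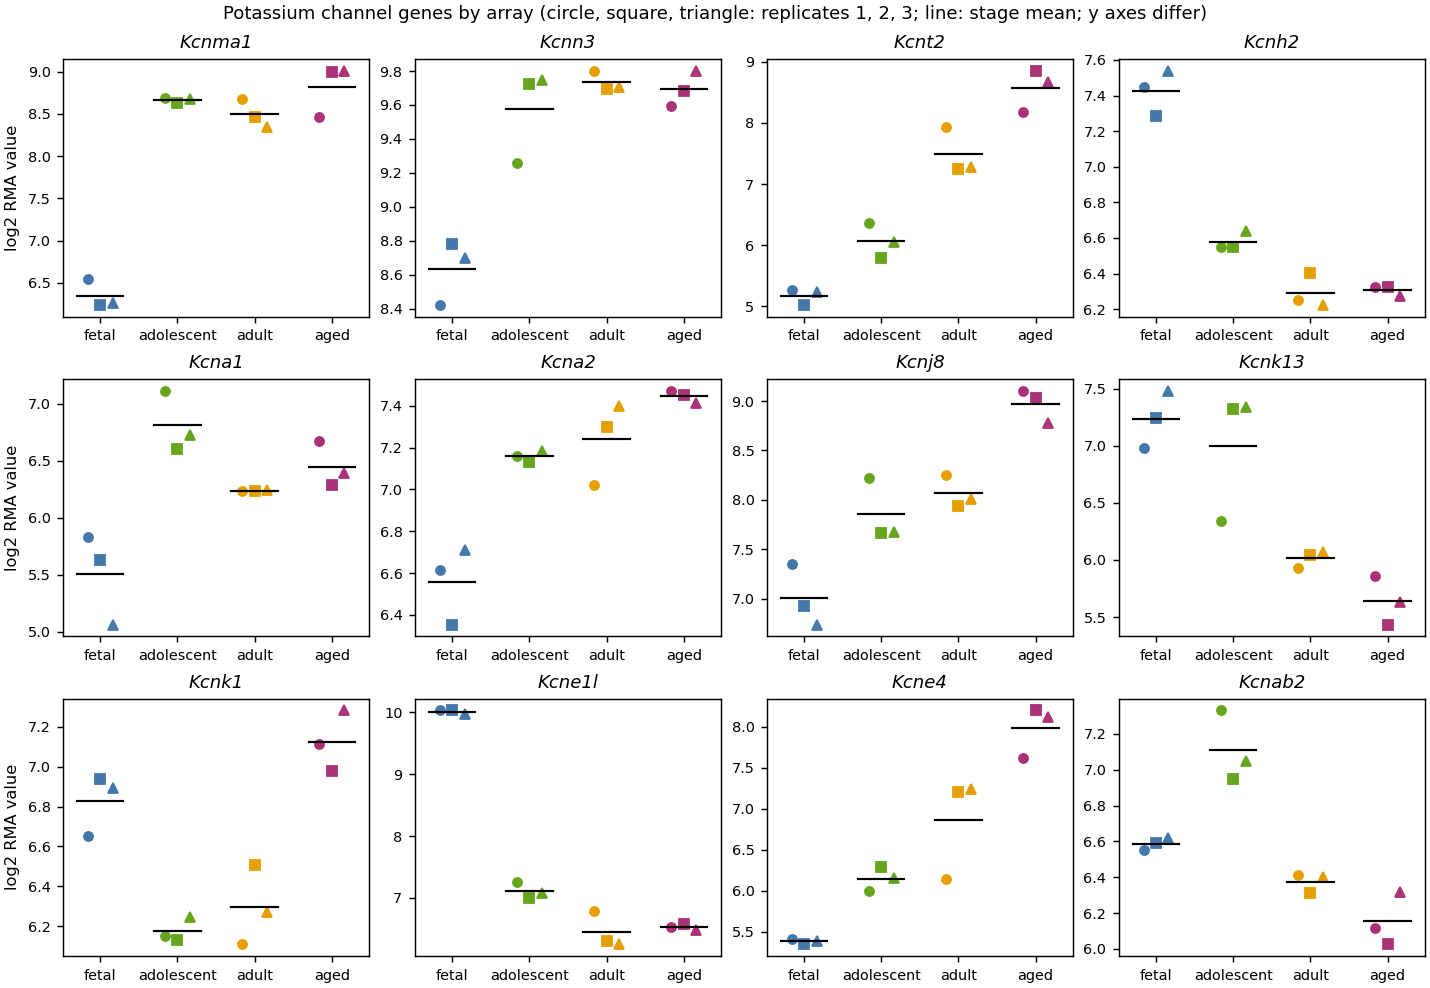
Log2 RMA value on each array (points, 3 per stage) and stage mean (line) for 12 channel genes, with a separate y axis for each gene. Kcnma1 and Kcnn3 step up after the fetal stage, Kcnt2, Kcne4 and Kcnj8 are highest in aged cells, Kcne1l and Kcnh2 step down after the fetal stage, and Kcnk1 is lower in adolescent and adult cells than in fetal and aged cells.

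Voltage-gated pores of the Kcna to Kcnd group were mostly dim (11 of 15). In adolescent against fetal cells 3 of the 15 rose (10.1% of all genes did): Kcna1, Kcna2 and the dim Kcna5. Kcna1 and Kcna2 are Shaker-type delayed rectifiers best known from axons. Kcna1 had 5.83, 5.63 and 5.06 in fetal cells, 7.12, 6.60 and 6.72 in adolescent, 6.23, 6.23 and 6.24 in adult and 6.67, 6.29 and 6.39 in aged cells. The adolescent stage had the highest mean, and its arrays did not overlap with the fetal or the adult ones. It was 2.47-fold higher in adolescent than in fetal cells (1.31 ± 0.19, adjusted p = 2.49e-04). It was then lower in adult than in adolescent cells (-0.58 ± 0.19, adjusted p = 0.0464), a call that was lost without any 1 of adolescent replicates 1, 2 and 3 or adult replicates 2 and 3 (adjusted p = 0.0541 to 0.177) and without the 3 arrays of raised background (adjusted p = 0.228).

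Kcna2 had 6.61, 6.35 and 6.71 in fetal cells, 7.16, 7.13 and 7.19 in adolescent, 7.02, 7.30 and 7.40 in adult and 7.47, 7.45 and 7.42 in aged cells. Its fetal arrays lay below the other 9. The adolescent against fetal difference was 0.60 ± 0.12 (adjusted p = 0.00266), and the later steps of 0.08 ± 0.12 and 0.21 ± 0.12 did not pass. A second Kcna2 probe set rose as well, by 0.46 in adolescent against fetal cells. Kcna3, known from lymphocytes, passed in none of the 4 comparisons (stage means 6.89, 6.76, 6.84 and 6.62 from fetal to aged). Kcna5, a delayed rectifier of heart and smooth muscle, was dim and rose by 0.66 ± 0.17 in adolescent against fetal cells (adjusted p = 0.0153), a call lost without fetal replicate 3, adolescent replicate 1 or adolescent replicate 3 (adjusted p = 0.0523 to 0.0685).

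Among the Kcnh and Kcnq pores, 1 fell and 2 rose in the fetal to adolescent step (8.68% of all genes fell and 10.1% rose). Kcnh2, the ERG channel that repolarises the heart, had 7.45, 7.28 and 7.54 in fetal cells, 6.55, 6.55 and 6.64 in adolescent, 6.25, 6.40 and 6.22 in adult and 6.33, 6.32 and 6.27 in aged cells. The fetal arrays lay above the other 9. It was lower in adolescent than in fetal cells by 1.80-fold (-0.85 ± 0.10, adjusted p = 3.44e-05) and in adult than in fetal cells by 2.19-fold (-1.13 ± 0.10, adjusted p = 1.42e-06). Kcnh5, of the ether-a-go-go group, went the other way in the first step (0.73 ± 0.17, adjusted p = 0.00879). Its adolescent mean of 6.07 stood above 5.35 in fetal, 5.55 in adult and 5.36 in aged cells. The adult against adolescent fall (-0.52 ± 0.17, adjusted p = 0.0482) had overlapping arrays and was lost with the replicate number as a block (adjusted p = 0.0632). It was also lost without adolescent replicate 1, adolescent replicate 3, adult replicate 1 or adult replicate 2 (adjusted p = 0.0565 to 0.184).

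Kcnq5, an M-type channel, rose by 0.51 ± 0.12 in adolescent against fetal cells (adjusted p = 0.0109), and by 0.46 (adjusted p = 0.054) without fetal replicate 2. Kcnh1, the ether-a-go-go channel itself, was dim with stage means of 5.21 to 5.46 and passed in none of the comparisons. Without adult replicate 1 it passed in adult against adolescent cells (0.34, adjusted p = 0.0358) and in aged against adult cells (-0.37, adjusted p = 0.0332). The only adult arrays in those fits are the ones of raised background. Kcnq1, the delayed rectifier that partners with Kcne subunits, had stage means of 5.92 to 6.02 and passed in none either.

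Silent Kv subunits form no channel alone and modify other Kv pores. Of 10, 6 rose in adult against fetal cells (19.1% of all genes did), of which Kcng1 and Kcns3 passed without the 3 arrays of raised background. Kcng1 had 6.77, 6.66 and 6.58 in fetal cells, 6.74, 6.77 and 6.61 in adolescent, 7.01, 7.17 and 7.16 in adult and 6.69, 6.65 and 6.61 in aged cells. All adult arrays lay above those of the 3 other stages. It was 0.41 ± 0.09 higher in adult than in adolescent cells (adjusted p = 0.0105) and 0.46 ± 0.09 lower in aged than in adult cells (adjusted p = 0.0186), the single member that fell in that step. The fall was lost without adult replicate 2, adult replicate 3, aged replicate 2 or aged replicate 3 (adjusted p = 0.0808 to 0.097), and the rise without adolescent replicate 3 or adult replicate 2 (adjusted p = 0.0572 and 0.052). Without the 3 arrays of raised background the rise was 0.30 (adjusted p = 0.133) and the fall -0.38 (adjusted p = 0.0799). In the fit of adult and adolescent arrays alone with a replicate block the rise did not pass either (adjusted p = 0.0605). Kcns3 was 0.63 ± 0.12 higher in adult than in fetal cells (adjusted p = 9.27e-04), with stage means of 6.55, 6.83, 7.18 and 7.06 from fetal to aged. The remaining 4, Kcng4, Kcnv2, Kcns1 and Kcns2, were dim, rose by 0.31 to 0.49 and did not pass without the 3 arrays.

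Inward rectifiers pass potassium more easily inward than outward. Of 15, 13 were dim, and the exceptions were Kcnj8 and Kcnj11, the pores of ATP-sensitive (KATP) channels. Kcnj8, the vascular KATP pore, had 7.35, 6.92 and 6.74 in fetal cells, 8.22, 7.66 and 7.68 in adolescent, 8.25, 7.94 and 8.00 in adult and 9.11, 9.03 and 8.78 in aged cells. The fetal arrays lay below all others and the aged arrays above all others, while adolescent and adult arrays overlapped. It was 1.80-fold higher in adolescent than in fetal cells (0.85 ± 0.18, adjusted p = 0.00498) and 1.88-fold higher in aged than in adult cells (0.91 ± 0.18, adjusted p = 0.0174). The aged against adult call was lost without adult replicate 2, adult replicate 3 or aged replicate 2 (adjusted p = 0.0714 to 0.0894). It was 0.66 (adjusted p = 0.189) without the 3 arrays of raised background.

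Abcc9, the sulphonylurea receptor that assembles with Kcnj8, had 7.32, 6.59 and 6.80 in fetal cells, 8.22, 8.05 and 8.09 in adolescent, 8.29, 8.32 and 8.36 in adult and 8.56, 9.19 and 9.07 in aged cells. The stages did not overlap and followed the order of age. It rose in adolescent against fetal cells (1.22 ± 0.18, adjusted p = 3.83e-04), and its aged against adult difference of 0.62 ± 0.18 did not pass (adjusted p = 0.0938). Kcnj8 and Abcc9 are also known markers of pericytes, the contractile cells of small vessels. Of 10 pericyte and smooth muscle markers, Abcc9 among them, 5 rose and 1 fell in adolescent against fetal cells, 1 rose and 3 fell in adult against adolescent cells and 2 rose in aged against adult cells. Their mean lay between 7.40 and 7.62 on the fetal arrays, 8.08 and 8.53 on the adolescent, 7.99 and 8.15 on the adult and 8.27 and 8.48 on the aged arrays. The pericyte markers Rgs5 and Pdgfrb rose in the first step (3.02 ± 0.22 and 1.24 ± 0.17), fell in the second (-0.74 ± 0.22 and -0.52 ± 0.17) and rose in the third (0.89 ± 0.22 and 0.82 ± 0.17). Other markers of that list took other courses: Cspg4 fell in the first step (-1.55 ± 0.12), Notch3 rose in the second (0.60 ± 0.11), and Acta2 rose in the first (0.62 ± 0.10), fell in the second (-0.68 ± 0.10) and had its lowest mean in aged cells. Of 10 endothelial markers, 9 rose, 7 fell and 7 rose in the same 3 steps. The shares of all genes were 10.1% rising and 8.68% falling in the first step, 4.56% and 15.2% in the second and 3.28% and 0.216% in the third. The part of these cells in the Kcnj8 result was not tested, and in bulk samples fewer cells of a type and less RNA per cell cannot be told apart.

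**Figure D3:**
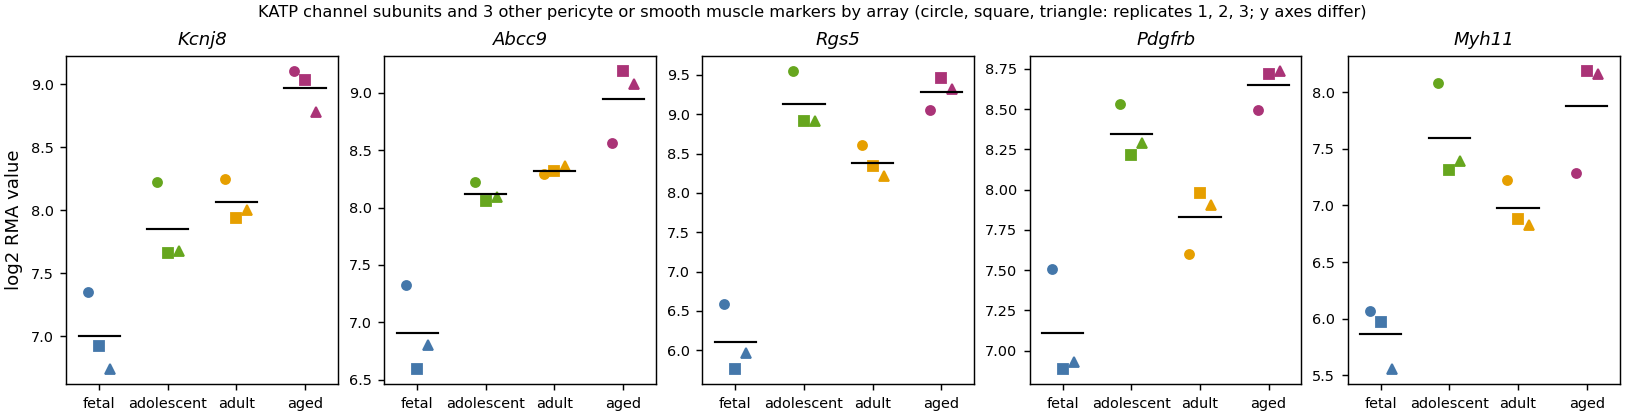
Log2 RMA value on each array (points, 3 per stage) and stage mean (line) for the KATP subunits Kcnj8 and Abcc9 and for Rgs5, Pdgfrb and Myh11, markers of pericytes and smooth muscle, with a separate y axis for each gene. Rgs5, Pdgfrb and Myh11 are 3 of the 10 markers listed and were chosen after their values were seen. All 5 genes drawn have their lowest stage mean in fetal cells and their highest in aged cells. The adult mean lies below the adolescent mean for Rgs5, Pdgfrb and Myh11 and above it for Kcnj8 and Abcc9.

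Kcnj11, the KATP pore of muscle and pancreatic beta cells, passed in none of the comparisons (stage means 6.16, 6.19, 6.39 and 6.08 from fetal to aged). Without adult replicate 1, which leaves only the adult arrays of raised background, Kcnj11 passed in aged against adult cells (-0.40, adjusted p = 0.0252). It then also passed in adult against fetal cells (0.33, adjusted p = 0.0369). Its receptor Abcc8 rose in adolescent against fetal cells (0.49 ± 0.10, adjusted p = 0.003). Kcnj2, the classical strong inward rectifier tied to myoblast fusion in human cells, was dim: its values were 5.37, 4.97 and 5.01 in fetal, 5.57, 5.09 and 5.05 in adolescent, 4.64, 4.70 and 4.77 in adult and 4.61, 5.29 and 5.14 in aged cells. The adult arrays lay below the fetal and the adolescent ones, and the adult against adolescent difference of -0.54 ± 0.19 did not pass (adjusted p = 0.0587). It passed after repeated quantile normalization (-0.74, adjusted p = 0.0232), after centring on array medians (-0.63, adjusted p = 0.0212) and with array weights, but in no other alternative. In adult against fetal cells Kcnj2 passed under the same settings only (-0.64 and -0.50 in the first of them, adjusted p = 0.0256 and 0.0379). Its relative Kcnj12 was dim, with stage means of 5.08 to 5.48, and did not pass.

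Leak channels with a tandem pore carry background current at rest, and 9 of the 14 were not dim. In the first step 2 of the 14 fell (8.68% of all genes did), Kcnk1 and Kcnk5. Kcnk1, a weak leak channel also called TWIK, had 6.65, 6.94 and 6.89 in fetal cells, 6.15, 6.13 and 6.25 in adolescent, 6.11, 6.51 and 6.27 in adult and 7.11, 6.98 and 7.28 in aged cells. The adolescent and adult arrays lay below all fetal and aged ones. It was lower in adolescent than in fetal cells (-0.65 ± 0.13, adjusted p = 0.00235) and 1.78-fold higher in aged than in adult cells (0.83 ± 0.13, adjusted p = 0.00341). Both calls passed whichever array was left out. Aged against fetal cells differed by 0.30 ± 0.13 (adjusted p = 0.0882).

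Kcnk13, a halothane-inhibited channel, had 6.98, 7.24 and 7.48 in fetal cells, 6.34, 7.33 and 7.34 in adolescent, 5.93, 6.05 and 6.07 in adult and 5.86, 5.43 and 5.63 in aged cells. Fetal and adolescent arrays overlapped, and every adult and aged array lay below them. It fell in adult against adolescent cells (1.98-fold lower, -0.98 ± 0.23, adjusted p = 0.0112), a call just missed without adolescent replicate 2 (adjusted p = 0.053) or adolescent replicate 3 (adjusted p = 0.0555), and not made without the 3 arrays of raised background (-1.07, adjusted p = 0.0917). In adult against fetal cells it was 2.32-fold lower (-1.22 ± 0.23, adjusted p = 0.00109). In the adult against adolescent step all 9 measured genes of a cell division list also fell (15.2% of all genes did). Their mean lay between 6.37 and 8.18 on the adult arrays and between 9.55 and 9.78 on the adolescent ones, and a tie with Kcnk13 was not tested.

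Kcnk5, an alkaline-activated channel of the TASK group, was lower in adolescent than in fetal cells (-0.58 ± 0.17, adjusted p = 0.0270). The call was lost without fetal replicate 2, fetal replicate 3, adolescent replicate 2 or adolescent replicate 3 (adjusted p = 0.0888 to 0.125). In adult against fetal cells it was -0.74 ± 0.17 (adjusted p = 0.00347) and passed whichever array was left out. Kcnk2, the stretch-activated TREK channel, had stage means of 5.71, 5.73 and 5.90 in fetal, adolescent and adult cells and 6.40 in aged cells. It was 0.50 ± 0.12 higher in aged than in adult cells (adjusted p = 0.0461), with no overlap. That call was lost with the replicate block (adjusted p = 0.0738) and without adult replicate 2, aged replicate 1, aged replicate 2 or aged replicate 3 (adjusted p = 0.0564 to 0.163). In adult against fetal cells Kcnk2 passed without adult replicate 1 (0.30, adjusted p = 0.0378). Kcnk6 passed in none of the comparisons. Kcnk4 and Kcnk12 rose in adult against fetal cells (0.56 ± 0.19 and 0.26 ± 0.10), and each call was lost without the 3 arrays of raised background (adjusted p = 0.634 and 0.0922). Leaving out fetal replicate 1, fetal replicate 3, adult replicate 2 or adult replicate 3 also ended both calls (Kcnk4 adjusted p = 0.081 to 0.132, Kcnk12 adjusted p = 0.0594 to 0.146).

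Accessory subunits held the largest fall of any member. Kcne1l is a single-span subunit of the Kcne family, which changes the gating of Kcnq1 and other pores. Its arrays read 10.04, 10.03 and 9.97 in fetal cells, 7.26, 7.00 and 7.08 in adolescent, 6.79, 6.30 and 6.25 in adult and 6.53, 6.58 and 6.48 in aged cells. Each of the fetal and the adolescent stage stood apart from all others, and adult and aged arrays overlapped. It was 7.49-fold lower in adolescent than in fetal cells (-2.90 ± 0.13, adjusted p = 1.26e-08) and 11.9-fold lower in adult than in fetal cells (-3.57 ± 0.13, adjusted p = 1.06e-09). A further fall of -0.67 ± 0.13 separated adult from adolescent cells (adjusted p = 0.00477), which was -0.32 (adjusted p = 0.128) without the 3 arrays of raised background. Without adult replicate 1, aged cells stood above adult cells (0.26, adjusted p = 0.0473).

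Kcne4, a relative that inhibits Kcnq1 and Kcna3 currents, went the other way. It had 5.41, 5.35 and 5.39 in fetal cells, 5.99, 6.30 and 6.15 in adolescent, 6.15, 7.21 and 7.25 in adult and 7.62, 8.20 and 8.12 in aged cells. The order followed age, except that adolescent replicates 2 and 3 lay above adult replicate 1. The steps were 0.76 ± 0.25 (adolescent against fetal, adjusted p = 0.0472), 0.72 ± 0.25 (adult against adolescent, adjusted p = 0.0575) and 1.12 ± 0.25 (aged against adult, adjusted p = 0.0276). The middle step passed with the replicate number as a block over all arrays (adjusted p = 0.0312), but not in the blocked fit of the 2 stages alone (adjusted p = 0.0628). Without adult replicate 1 it was 1.08 (adjusted p = 1.61e-04). The first step passed with none of its 6 arrays left out (adjusted p = 0.0709 to 0.157), and the last did not pass without aged replicate 2 or aged replicate 3 (adjusted p = 0.147 and 0.126). Aged cells stood 6.05-fold above fetal cells (2.60 ± 0.25, adjusted p = 2.83e-06), and adult cells 2.79-fold above them (1.48 ± 0.25, adjusted p = 3.89e-04). The partner pores Kcnq1 and Kcna3 passed in none of the 4 comparisons.

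Kcnab2, a cytoplasmic beta subunit of Kcna channels, had 6.55, 6.59 and 6.62 in fetal cells, 7.33, 6.95 and 7.05 in adolescent, 6.41, 6.31 and 6.40 in adult and 6.12, 6.03 and 6.32 in aged cells. The adolescent arrays lay above all others. It rose in adolescent against fetal cells (0.52 ± 0.11, adjusted p = 0.00546) and fell in adult against adolescent cells (-0.74 ± 0.11, adjusted p = 0.00105), and both calls passed whichever array was left out. With Kcna1 and Kcnh5 it made 3 members that passed upward in the first step and downward in the second. Of 10 myofibre markers 5 rose in the first step (10.1% of all genes did) and 5 fell in the second (15.2%), for example Pvalb (4.37 ± 0.35 and -2.15 ± 0.35). Their mean lay between 7.12 and 8.20 on the fetal, 8.85 and 9.38 on the adolescent, 7.94 and 8.28 on the adult and 8.07 and 8.15 on the aged arrays, and their part in these 3 genes was not tested. Kcnab1, a relative of Kcnab2, was dim and rose by 0.38 ± 0.11 in the first step (adjusted p = 0.0292), which was lost without adolescent replicate 1 or fetal replicate 1, 2 or 3 (adjusted p = 0.0505 to 0.13). Kcnmb3 rose in adult against fetal cells (0.50 ± 0.17, adjusted p = 0.0322), but was 0.03 (adjusted p = 0.911) without the 3 arrays of raised background. That call was also lost without fetal replicate 1, fetal replicate 3, adult replicate 2 or adult replicate 3 (adjusted p = 0.0788 to 0.136). Kcne3 and Kcnip3 passed in none of the comparisons. The antisense transcript Kcnd3os rose in adult against fetal cells (0.32 ± 0.10, adjusted p = 0.0274), a call lost without fetal replicate 3 or adult replicate 2 (adjusted p = 0.118 and 0.067).

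**Figure D4:**
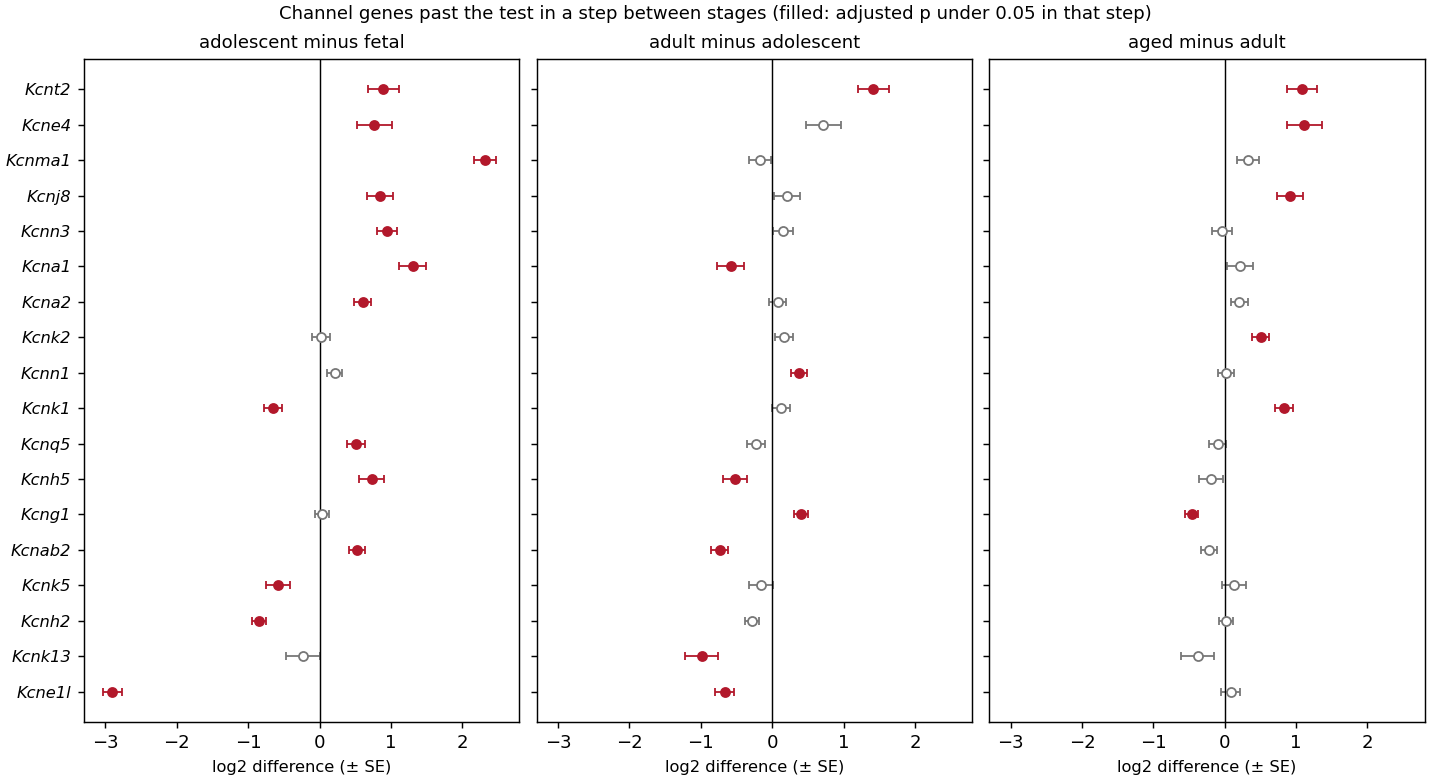
Log2 differences (± SE) of the non-dim channel genes that passed in at least 1 of the 3 steps between neighbouring stages, ordered by their aged minus fetal difference, with filled red points where the adjusted p was under 0.05. The fetal to adolescent panel holds the widest differences, from -2.90 for Kcne1l to 2.32 for Kcnma1, and Kcnt2 is filled in all 3 panels.

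Dim members moved with the background of the arrays. Olfactory and vomeronasal receptor genes, which muscle cells are not known to use, averaged 4.47 and 4.50 over 1210 probe sets on adult replicates 2 and 3 and 4.31 on aged replicate 1. Elsewhere they averaged 3.79 to 3.91. The 57 dim members averaged 5.36, 5.39 and 5.24 on those 3 arrays and 4.95 to 5.11 on the others. Of the 57, 52 were higher on both adult replicates 2 and 3 than on adult replicate 1, and 48 were higher on aged replicate 1 than on both other aged replicates. The adult stage had the highest mean for 40 dim members, the fetal stage for 7, the adolescent stage for 6 and the aged stage for 4. Their stage means spanned a median of 0.31, against 0.60 for the 35 others, and at most 0.83. In adult against fetal cells 11 of the 26 members that rose and 1 of the 6 that fell were dim. Of those 12 calls, 1 (Kcnmb4) was also made without the 3 arrays and 1 (Kcnmb4) with the receptor mean as a covariate. The 4 dim calls of the fetal to adolescent step, Kcna5, Kcnab1, Kcnj13 and Kcnmb1, were made under both. The 3 arrays belong to neither of these stages, so leaving them out changed only the shared spread. The receptor mean was 3.83 in fetal and 3.90 in adolescent cells, so neither fit is much of a check on these 4 calls.

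**Figure D5:**
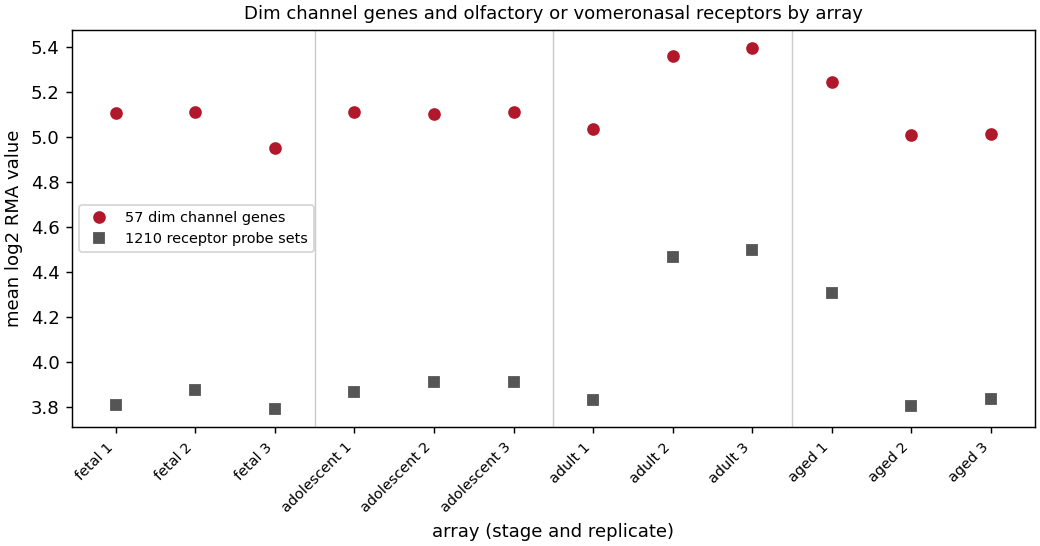
Mean log2 RMA value of the 57 dim channel genes (circles) and of 1210 olfactory or vomeronasal receptor probe sets (squares) on each of the 12 arrays. Both are raised on adult replicates 2 and 3 and aged replicate 1, where the receptors lie at 4.31 to 4.50 and the dim channel genes at 5.24 to 5.39.

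Genes that work beside potassium channels were counted by list, and no list was tested as such. Over all genes 10.1% rose and 8.68% fell in adolescent against fetal cells, and 19.1% rose in adult against fetal cells. In adult against adolescent cells 4.56% of all genes rose and 15.2% fell. The sodium pump builds the potassium gradient, and of its 10 measured subunits and regulators 7 rose in adolescent against fetal cells and 7 in adult against fetal cells. Among them were the pump regulators Fxyd1 (1.43 ± 0.13), Fxyd6 (0.94 ± 0.09) and Fxyd5 (0.86 ± 0.25), the beta subunits Atp1b2 (0.88 ± 0.13) and Atp1b3 (0.75 ± 0.15), and the alpha subunit Atp1a4 (1.18 ± 0.14), in adolescent against fetal cells. Atp1b3 then fell in adult against adolescent cells (-0.54 ± 0.15, adjusted p = 0.0271). Of 13 measured channel partners 3 rose and 1 fell in the first step: Abcc8, Abcc9 and Dpp6, a partner of Kcnd pores, rose, and the proton channel Hvcn1 fell (-0.59 ± 0.12, adjusted p = 0.00404). Dpp6 rose by 0.91 ± 0.19 and then fell by 0.93 in adult against adolescent cells (adjusted p = 0.0049), while the Kcnd pores were dim and did not pass. The chloride cotransporter Slc12a2 was the 1 of 8 cotransporters that fell in adult against adolescent cells (-0.83 ± 0.21, adjusted p = 0.0164).

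Voltage-gated calcium channels can supply the calcium that opens Kcnma1 and Kcnn channels. Of 18 measured, 2 rose and 2 fell in the first step, 2 rose and 1 fell in the second and 1 rose and 1 fell in the third. Over all genes 10.1% rose and 8.68% fell in the first step, 4.56% and 15.2% in the second and 3.28% and 0.216% in the third. Cacna1d, an L-type pore, rose at each of the 3 steps (0.85 ± 0.12, 0.96 ± 0.12 and 0.93 ± 0.12), with stage means of 6.18, 7.03, 7.99 and 8.92 from fetal to aged. Its values in every array followed the order of the stages, as those of Kcnt2 did. The T-type pore Cacna1g fell in adolescent against fetal cells (-1.19 ± 0.12, adjusted p = 1.12e-05). Of 10 voltage-gated sodium channel genes, 1 fell in the first step: Scn3b, a beta subunit, had stage means of 9.27 in fetal, 5.74 in adolescent, 5.37 in adult and 5.05 in aged cells (-3.52 ± 0.14 in adolescent against fetal cells, adjusted p = 4.5e-09).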

How the data were processed

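Gene expression was measured in 12 RNA samples of sorted satellite cells, 3 per stage. Per the submitters' processing notes, the authors ran RMA with the software Affymetrix Expression Console (version 1.2.1.20). The deposited log2 values were used unchanged. Scanner files were not used here, so the number of arrays limits the precision, and a genome build is not given in the sources used here. Of 35556 probe sets 21789 carried 1 symbol, 1621 several and 12146 were unnamed, and 95 Kcn probe sets gave the 92 members. All 92 matched RefSeq. Some other genes are not reported here. Promoters came from RefSeq (GRCm38.p6).

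A means model of stage was fitted to all 12 arrays with limma 3.58.1 in R 4.3.3 (8 residual degrees of freedom), with Benjamini-Hochberg adjustment over 19938 genes and a threshold of 0.05. The members, the gene lists and the alternatives were chosen with earlier results of these data known. Named with values were members that passed and averaged 6 or more in their higher stage (up to 30 per comparison), the 5 with the highest overall mean and a fixed list, and dim members only where they passed. The cell type and partner lists held no more than 19 names each.

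The labels state no pairing. Arrays of equal number deviated together from their stage means in adult and adolescent cells (correlation 0.362, 0.317 and 0.239, each over 0.1). Fits with the replicate number as a block are therefore given as alternatives. The main fit had no replicate term, so its differences and p-values are unpaired in every comparison. Unequal numbers gave 0.240 and 0.293 between replicates 2 and 3 and -0.336 to -0.264 where replicate 1 was involved. For adolescent and fetal arrays the values were 0.176, 0.197 and 0.0293, for aged and adult -0.435, -0.394 and -0.237, and for adult and fetal 0.0459, 0.273 and -0.223.

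The fits were first tested on simulated arrays with known changes. Alternatives were another normalization or centring, a floor at 6, a filter on dim genes, the mean of probe sets, a 2-stage fit, trended variance, array weights, the receptor background as a covariate, a replicate block, a test against a 1.5-fold change and leaving out arrays. A 2-stage fit with a replicate block, the average of replicates 2 and 3, and leaving out adult replicate 1 and aged replicate 1 together were added after seeing the data.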

Additional observations from a re-analysis of the deposited data

How the results depend on the processing

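Of 51 named differences that passed, 8 passed under every alternative run and 0 changed direction: Kcna1, Kcne1l and Kcnma1 in adolescent against fetal cells and Kcne1l, Kcnh2, Kcnma1, Kcnn3 and Kcnt2 in adult against fetal cells. Leaving out single arrays kept 31 of the 51. Counts of members that passed moved most in the comparisons with adult cells. In adolescent against fetal cells (18 passed) the count was 11 with a floor at 6, 3 in a test against a 1.5-fold change and 5 with replicates 2 and 3 averaged, and 13 to 16 with 1 array of the 2 stages left out, as in all such ranges between stages here. It was 20 without adult replicate 1. In adult against adolescent cells (8 passed) it was 5 in the 2-stage fit, 72 with array weights, 0 against a 1.5-fold change (limma, 1 at an unadjusted p under 0.05), 3 without the 3 arrays of raised background, 5 in the 2-stage fit with replicate block, 1 with replicates averaged, and 3 to 42 with 1 array left out. In aged against adult cells (6 passed) it was 1 in the 2-stage fit, 72 with array weights, 0 against a 1.5-fold change (3 unadjusted), 0 in the 2-stage fit with replicate block (6 unadjusted), 0 with replicates averaged (7 unadjusted), 59 without adult replicate 1 and aged replicate 1, and 1 to 42 with 1 array left out. In adult against fetal cells (32 passed) it was 16 with a floor at 6, 20 without dim genes, 77 with array weights, 19 with the receptor background as a covariate, 6 against a 1.5-fold change, 16 without the 3 arrays of raised background, 17 in the 2-stage fit with replicate block, 11 with replicates averaged, and 22 to 62 with 1 array left out. Among the 4 stages (26 passed) it was 87 with array weights, 14 with replicates averaged and 21 to 57 with 1 array left out. Among single arrays left out, adult replicate 1 gave the highest count in each comparison with adult cells, and in aged against adult cells 35 of its 42 members fell. The array weights did not converge, and the cause of these shifts was not tested. The floor keeps every member but sets values under 6 to 6. The filter on dim genes leaves fewer members to call, though it gave 12 in adult against adolescent cells, and averaging leaves fewer samples. The replicate block over all arrays gave 18, 8, 5 and 28 members in the 4 comparisons and 24 among the stages. It ended the calls of Kcnh5 in adult against adolescent and Kcnk2 in aged against adult cells. In adult against fetal cells it ended those of Kcnk4 and Kcnk12 (adjusted p = 0.0506 and 0.066) and of the dim Kcne2 and Kcnj6. It added Kcne4 in adult against adolescent cells. The blocked 2-stage fit of those cells lost Kcng1, Kcnh5 and Kcnn1 (adjusted p = 0.0605, 0.0888 and 0.073). The split of calls changed with scaling: in adult against fetal cells 26 rose and 6 fell as deposited, 19 and 9 after repeated quantile normalization and 11 and 8 with the receptor covariate, and in adult against adolescent cells 3 rose and 5 fell as deposited, and 2 and 7 after centring.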
